A study of Mus musculus with 24 samples.

Results

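H3K36me3, the trimethylation of histone H3 at lysine 36, was mapped by chromatin immunoprecipitation and sequencing (ChIP-seq) in mouse macrophages with a hairpin against Wdr82 and in control macrophages. These are 4 of the 24 libraries of the study and hold 142715 of its 756484 peaks. The cells were bone marrow-derived macrophages, grown from bone marrow of the FVB/Hsd strain and taken at day 7 of differentiation. All were infected with a retrovirus and selected with puromycin. They carried the Wdr82 hairpin (sh1137, called shWdr82 here) or a scrambled control, and were left untreated or exposed to 10 ng/ml lipopolysaccharide (LPS), from the outer membrane of bacteria. The titles give 45 min of LPS for these libraries, whereas the protocol text speaks of 4 h only. Each combination of vector and treatment has 1 library, so differences could not be checked over replicates and no test was run. Pooling of animals is not given in the sources used here, and the degree of Wdr82 depletion cannot be read from peak lists.

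H3K36me3 is written during transcription by SETD2, an enzyme that travels with elongating RNA polymerase II (Pol II), the form whose C-terminal domain carries phosphate on serine 2 (Ser2P). The mark covers the bodies of transcribed genes, is low at the promoter, where H3K4me3 sits, and runs up to the region where transcription ends. WDR82 belongs to the SET1 complexes that methylate H3K4, and to a complex of the phosphatase scaffold PNUTS that acts on Pol II when transcription terminates. The ends of H3K36me3 domains therefore show how far the mark of elongation was called on either side of a transcribed unit. The series title concerns early termination at regulatory elements, and these 4 libraries address whether the mark of transcribed units was called elsewhere, or further, in shWdr82 cells.

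Peaks at most 1000 bp apart in a list were joined into domains. The scrambled lists gave 20940 domains from 37166 peaks in untreated cells and 20555 from 33445 after LPS. The shWdr82 lists gave 20601 from 34042 and 21538 from 38062. The 4 libraries were alike in median domain length. Median domain length was 6354 and 5985 bp in scrambled and 6407 and 6047 bp in shWdr82 cells, untreated and after LPS, so that the treatments differed more than the vectors. H3K4me3 peaks of hairpin or control cells, untreated or with LPS to match, covered 0.476% to 1.32% of the domain length, against 7.90% to 9.59% for Ser2P peaks. The H3K4me3 values differed by vector, at 1.32% and 1.12% for scrambled and 0.476% and 0.580% for shWdr82 domains, untreated and after LPS. Each vector was read with its own H3K4me3 lists, so a difference in those lists cannot be told apart here. H3K27ac peaks covered 7.67% to 9.26% of the domain length and H3K4me1 peaks 11.8% to 14.3%. H3K4me1 also differed by vector, at 14.3% and 14.1% for scrambled and 11.8% and 12.0% for shWdr82 domains. The share of the genome under each list was not compared, so these values do not check the label. Of domains of 10 kb or longer, 44.0% to 56.0% held a Ser2P peak, against 14.2% to 16.6% of shorter ones. H3K4me3 peaks were likewise in 14.2% to 25.2% of the longer and 6.39% to 10.6% of the shorter domains. For the longer domains these were 25.2% and 20.0% in scrambled and 14.2% and 14.5% in shWdr82 lists. H3K27ac and H3K4me1 peaks were also in a larger share of the longer ones. A longer domain has more room to overlap a peak of any list, so this split by length does not check the label either. The H3K4me3 and H3K27ac libraries had 4 h of LPS and an empty vector (LMP) as the control. Macrophage marker genes were not checked, since the peak positions (mm9) could not be joined to a gene table on another build.

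The lists differ in ways that bear on every count. The scrambled LPS list was the weakest, with 8.98% of its peaks at a score of 3100 or more, against 13.7% to 15.5% in the others, and a median score of 377 against 457 to 490. Its domains covered 225 Mb, against 238 to 243 Mb in the other 3. Read depth is unknown, and deeper sequencing or better enrichment cannot be told apart here from a difference in the cells. Fewer cells with the mark and less mark per cell cannot be told apart either. Intervals are 95% exact binomial (Clopper-Pearson) unless stated otherwise, treat domains as independent, and cover counting error only.

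The number of domains was close in the 2 vectors, and the interval of their ratio included 1 in untreated cells. The shWdr82 list held 0.984 times as many domains as the scrambled list in untreated cells (0.965 to 1.00), with more domains on 4 of 20 chromosomes. After LPS the ratio was 1.05 (1.03 to 1.07), with more on 20 of 20. With equal numbers of highest-scoring peaks taken from both lists of a treatment, the order turned in both, to 1.05 untreated and 0.957 after LPS. No length class stood apart. Over 6 classes from under 2 kb to 50 kb or longer, the ratio ran from 0.971 to 0.997 in untreated cells and from 1.02 to 1.08 after LPS. The longest class held 562 and 548 domains in untreated scrambled and shWdr82 cells, and 473 and 510 after LPS.

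**Figure D1:**
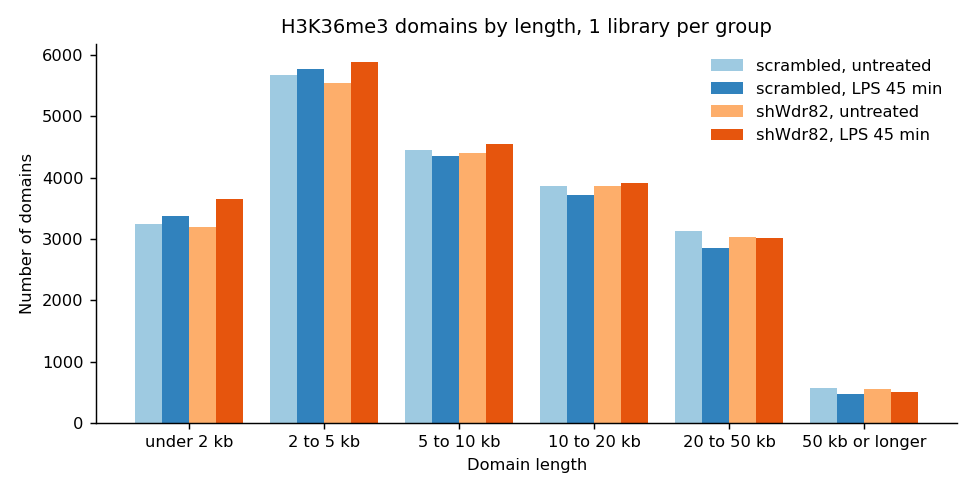
Number of H3K36me3 domains (y axis) in each class of domain length (x axis) for the 4 libraries, 1 bar per library. The 4 bars of a class are close to each other, and shWdr82 LPS cells have the most domains under 2 kb (3651, against 3200 to 3381 in the other libraries).

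Where a domain overlapped exactly 1 domain of the other vector, the lengths were nearly equal. Such pairs numbered 14669 in untreated cells, with a median shWdr82 to scrambled log2 length ratio of -0.02 (order-statistic interval -0.022 to -0.019), and 14685 after LPS, with a median of -0.0039 (-0.0051 to -0.0026). These medians correspond to 0.986 and 0.997 times the scrambled length. In untreated cells, 1029 pairs (7.01%) were at least 1.5-fold longer in shWdr82 cells and 1274 (8.68%) at least 1.5-fold shorter. After LPS the order was the opposite, with 1419 longer (9.66%) and 1003 shorter (6.83%). Lengths differed as much between the libraries of the 2 treatments. From untreated to LPS, 607 of 15073 pairs were at least 1.5-fold longer (4.03%) and 1596 shorter (10.6%) in scrambled cells, and 743 (4.63%) and 1148 (7.15%) of 16049 in shWdr82 cells. Across both factors, 901 of 15033 pairs were longer (5.99%) and 1450 shorter (9.65%) in shWdr82 LPS than in scrambled untreated cells. In shWdr82 untreated against scrambled LPS cells, 1451 of 14412 were longer (10.1%) and 833 shorter (5.78%).

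Domains that were whole in one vector and broken in the other occurred in similar numbers on both sides. A single shWdr82 domain spanned several scrambled domains in 1069 cases in untreated cells, and the reverse held in 1011. After LPS there were 1117 and 1020. The gaps so bridged were short, with medians from 1691 to 1827 bp, and 60 to 73 gaps of each kind were 10 kb or longer. Ser2P peaks were found in 4.43% (shWdr82) and 4.82% (scrambled) of the 1286 gaps bridged by untreated shWdr82 domains, and in 8.30% and 6.65% of the 1338 bridged after LPS. Total Pol II peaks lay in 10.4% and 10.8% of the former, and in 15.5% and 11.7% of the latter. The gaps bridged by scrambled domains held more Pol II, and they also held H3K4me3 more often. H3K4me3 lay in 4.04% (shWdr82) and 4.74% (empty vector) of them untreated, against 0.933% and 1.09% of gaps bridged by shWdr82 domains. After LPS it lay in 2.32% and 2.40%, against 1.12% and 1.42%. Ser2P lay in 11.9% (shWdr82) and 13.4% (scrambled) of the 1139 untreated ones and in 9.78% and 9.52% of the 1166 after LPS. Total Pol II lay in 22.8% and 26.8% of the former and in 18.8% and 20.5% of the latter.

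To tell the start of a transcribed unit from its end without gene models, domains were oriented by H3K4me3. A domain pair of at least 5000 bp in both libraries was oriented when a region with H3K4me3 in all 4 H3K4me3 lists (15439 such regions) lay within 10000 bp of 1 of its ends and of no other. The end near H3K4me3 is called proximal, the other distal. There were 3878 oriented pairs in untreated cells and 3643 after LPS.

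At the distal end, where transcription would run out, the mark did not extend further in shWdr82 cells as a rule. The distal ends agreed to within 1000 bp in 83.8% of untreated and 84.4% of LPS pairs. In untreated cells the median shift, counted as positive where the shWdr82 domain reached further out, was -49.0 bp. Ends at least 1000 bp further out in shWdr82 cells numbered 214 (5.52% of pairs) and ends further in 413 (10.6%), so 34.1% of differing ends lay further out (30.4 to 38.0). More ends lay further in on 19 of 20 chromosomes. After LPS the median shift was 0 bp, with 287 ends further out (7.88%) and 281 further in (7.71%), a share of 50.5% (46.3 to 54.7). At a threshold of 3000 bp the share after LPS was 58.6% (102 out, 72 in). With equal numbers of peaks in both lists it was 41.1% after LPS and 41.3% untreated. At 10 kb or more the counts were 39 out and 54 in for untreated cells, and 51 out and 27 in after LPS.

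At the proximal end the mark began further from the promoter in both shWdr82 libraries. In untreated cells 144 proximal ends were at least 1000 bp further out, towards or into the promoter (3.71%), and 358 further in (9.23%), a share of 28.7% out (24.8 to 32.9). After LPS these were 133 (3.65%) and 324 (8.89%), a share of 29.1% (24.98 to 33.5). More ends lay further in on 20 of 20 chromosomes in untreated cells and on 19 after LPS. The median shifts were small, -107 and -64.0 bp. For the 2990 oriented domains found 1 to 1 in all 4 libraries, the median distance from the inner edge of the H3K4me3 region to the H3K36me3 domain was 415.5 and 542.5 bp in scrambled and 644 and 756.5 bp in shWdr82 cells, untreated and after LPS. The domain overlapped the H3K4me3 region in 35.2% and 31.4% of these in scrambled cells, and in 29.5% and 27.1% in shWdr82 cells. Over all 15439 H3K4me3 regions, an H3K36me3 domain overlapped 22.3% (21.7 to 23.0) and 19.3% (18.7 to 19.9) in scrambled, and 18.0% (17.4 to 18.6) and 16.8% (16.2 to 17.4) in shWdr82 cells. Within each vector, the LPS library differed from the untreated one in the same direction as the shWdr82 from the scrambled library.

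The differences between the vectors were of the size of those between the treatments. Among differing proximal ends, 32.1% lay further out in the LPS than in the untreated library of scrambled cells (142 out, 3.74% of 3795 pairs, and 300 in, 7.91%), and 30.7% in shWdr82 cells (119 out, 3.02% of 3942, and 268 in, 6.80%). At the distal end these shares were 30.4% (185 out, 4.87%, and 424 in, 11.2%) and 40.2% (190 out, 4.82%, and 283 in, 7.18%). Comparisons across both factors gave 16.2% at the proximal end for shWdr82 LPS against scrambled untreated cells (86 out, 2.27%, and 445 in, 11.7%). For shWdr82 untreated against scrambled LPS cells it was 43.2% (187 out, 5.04%, and 246 in, 6.63%). Distal ends gave 32.1% in the former (203 out, 5.35%, and 429 in, 11.3%) and 53.2% in the latter (313 out, 8.44%, and 275 in, 7.42%). All 6 comparisons share libraries with each other. In each of them the proximal share was under 50% in the order named here. Naming the libraries in the other order would put it above 50%, so that all 6 agree rests partly on this order.

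**Figure D2:**
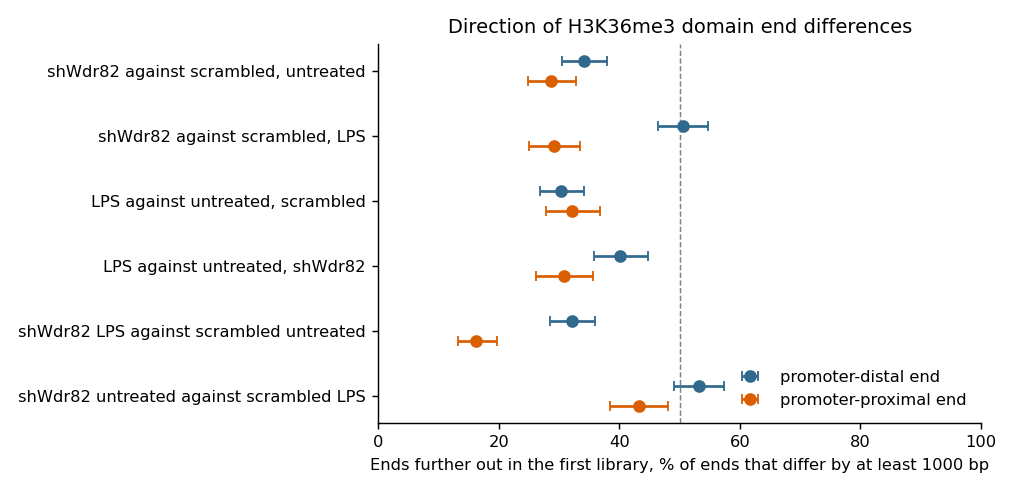
Share of domain ends that lie further out in the first-named library (x axis, percent of ends that differ by at least 1000 bp) for the 6 pairs of libraries (y axis), with 95% exact binomial intervals. Proximal ends (orange) of shWdr82 domains lie to the left of 50% in both treatments, and distal ends (blue) do so in untreated cells only.

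Longer domains did not behave otherwise at the distal end. In untreated cells the share of differing distal ends that lay further out was 37.7% for domains of 5 to 10 kb (63 out, 104 in), 34.3% for 10 to 30 kb (112 out, 215 in) and 29.3% for 30 kb or longer (39 out, 94 in). After LPS the shares were 48.4%, 53.6% and 45.7%, and each of the 3 intervals included 50%. The proximal share was between 25.3% and 36.3% in all classes of both treatments.

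Pol II was looked up in the strips between the 2 distal ends, in libraries that the choice of strips did not use. In the 214 strips reached by shWdr82 domains alone in untreated cells, the share with a Ser2P peak was 36.0% with the hairpin and 34.1% without it, which differ by 1.87 percentage points (95% Wald interval for paired shares -1.79 to 5.52). Ser2P was found at 39.7% and 38.7% of the 287 such strips of LPS cells, which differ by 1.05 points (-3.33 to 5.42). Both intervals include 0. Total Pol II in the strips after LPS went the other way, at 31.0% in shWdr82 and 36.2% in scrambled cells (-5.23 points, -9.66 to -0.789). In the 413 strips reached by scrambled domains alone in untreated cells, Ser2P was found at 40.7% with the hairpin and at 48.2% without it (-7.51 points, -10.6 to -4.41). Total Pol II was at 49.4% and 56.4% of them (-7.02 points, -11.2 to -2.86). After LPS the difference for Ser2P in the 281 strips of that kind was 0.356 points (-2.68 to 3.40).

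Distal ends that differed in untreated cells differed the same way after LPS more often than other ends did. The untreated and LPS pairs share no library. Of the 132 domains, among the 2990, with a distal end at least 1000 bp further out in untreated shWdr82 cells, 46 also reached further out after LPS, or 34.8% (26.8 to 43.6), and 21 lay further in. Among all 2990, 203 reached further out after LPS (6.79%) and 218 lay further in (7.29%). Of the 282 further in when untreated, 69 were further in after LPS, or 24.5% (19.6 to 29.9), and 25 further out. Proximal ends further in repeated likewise, 78 of 257 (30.4%) against 245 of 2990 (8.19%). Of 93 proximal ends further out in untreated cells, 20 were further out after LPS (21.5%) and 22 further in (23.7%), against 107 (3.58%) and 245 of all 2990. Across the 2990 domains the distal shifts of both treatments had a Pearson r of -0.0095 and a Spearman rho of 0.126, as a description of points that share their H3K4me3 orientation. Most ends did not move, and a few large shifts had opposite signs.

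**Figure D3:**
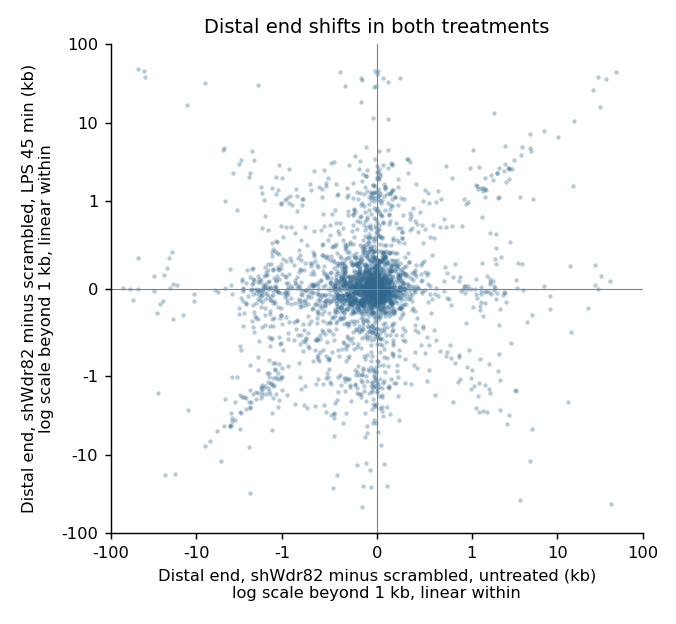
Distal end shift in kb, shWdr82 minus scrambled, in untreated cells (x axis) and after LPS (y axis), for the 2990 oriented domains found in all 4 libraries, 1 point per domain. Both axes are linear within 1 kb and logarithmic beyond, and most points lie near 0 or along an axis, with smaller groups along the rising diagonal.

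Large shifts often matched a peak border of the longer domain. Domains are chains of peaks, and a chain ends early when 1 peak is missing from a list. The distal end of the shorter domain lay within 500 bp of a border between peaks of the longer domain in 22 of 39 shifts of 10 kb or more outward in untreated shWdr82 cells (56.4%), and in 34 of 51 after LPS (66.7%). For inward shifts of that size it was 40 of 54 (74.1%) and 22 of 27 (81.5%). For shifts of 1000 to 3000 bp the share was 29.7% to 36.8%. The number of peak borders in a domain was not taken into account, and why large shifts often end near a border was not tested.

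The 6 largest outward shifts that were present in both treatments show this range. Positions are given in mm9 coordinates without gene names. The domain at chr4:137160097-137215157, with its H3K4me3 region at chr4:137149194-137152247, measured 6035 bp in scrambled untreated, 10724 bp in scrambled LPS, 54330 bp in shWdr82 untreated and 55057 bp in shWdr82 LPS cells, so that the distal end lay 48275 and 44281 bp further out with the hairpin. The scrambled ends were 54 and 49 bp from a peak border of the shWdr82 domain. Ser2P covered 3.79% of the untreated strip in shWdr82 and 3.39% in scrambled cells, and 0.479% and 0.504% after LPS. Total Pol II covered 9.32% and 30.6% of it untreated, and none of it after LPS. Ser2P was thus called over nearly the same share of this strip in both vectors, and total Pol II over less of it with the hairpin. The untreated strip held an H3K4me3 peak in 1 of 4 lists, unlike the other outward strips, and H3K27ac peaks in 3 of 4. Whether a further promoter lies in it was not tested.

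A similar case was the domain at chr6:71793804-71857670, with lengths of 26694 and 26715 bp in scrambled and 63867 and 62727 bp in shWdr82 cells. The scrambled ends were 5 and 0 bp from a peak border, and Ser2P covered 15.6% (shWdr82) and 15.9% (scrambled) of the untreated strip, and 15.4% and 21.96% after LPS. The domain at chr4:11421048-11479494 measured 28617 and 20141 bp in scrambled and 58383 and 57661 bp in shWdr82 cells, with no Ser2P peak in either strip in either vector. Its scrambled ends lay 8416 and 11 bp from a peak border, untreated and after LPS. The domain at chr1:182577489-182623474 measured 14037 and 26225 bp against 45877 and 41949 bp, with neither Ser2P nor total Pol II in the strips. Its scrambled ends lay 40 and 3169 bp from a peak border.

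At 2 of the 6 domains Pol II covered more of the added strip in shWdr82 cells, but the difference was not confined to the strip. The domain at chr1:123329405-123380226 begins next to its H3K4me3 region (chr1:123326496-123329352) and measured 24831 and 24374 bp in scrambled and 50424 and 50822 bp in shWdr82 cells. After LPS, Ser2P covered 67.5% of the added strip in shWdr82 and 3.36% in scrambled cells, and total Pol II 98.0% and 26.0%. In untreated cells Ser2P covered none of it in either vector and total Pol II 8.35% and none. The scrambled ends lay 2 and 17 bp from a peak border of the shWdr82 domain. The shWdr82 domains ended 52265 and 52303 bp from the centre of the H3K4me3 region. Another H3K36me3 domain began 53578 to 53584 bp from it in all 4 libraries. Over this next domain, a Ser2P peak ran from 54306 to 74142 bp in shWdr82 LPS cells. Within that stretch scrambled LPS cells had Ser2P peaks at 59609 to 61233 and 68487 to 69668 bp. On the other side of the H3K4me3 region, a Ser2P peak at -14975 to -6883 bp was called in shWdr82 LPS cells alone. The smaller domain at chr4:86364470-86392807 measured 10906 and 16976 bp in scrambled and 28338 and 27738 bp in shWdr82 cells. Ser2P covered 39.6% of the untreated and 15.8% of the LPS strip in shWdr82 cells, total Pol II 44.8% and 16.0%, and in scrambled cells neither was called in the strips. The scrambled ends of this domain lay 248 and 2879 bp from a peak border. The shWdr82 domains ended 31348 and 30804 bp from the centre of this H3K4me3 region. Another H3K36me3 domain began 32501 to 33759 bp from it in all 4 libraries. Ser2P was also called in shWdr82 cells alone in the part of the domain shared by all 4 libraries. These peaks included 5044 to 6336 bp untreated and 4969 to 6287 bp after LPS. The added strips of these 2 domains thus ran nearly up to a domain called in both vectors. The untreated strips of these domains held H3K4me1 peaks in 4 of 4 lists, as did those of 3 of the other 4 outward domains.

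**Figure D4:**
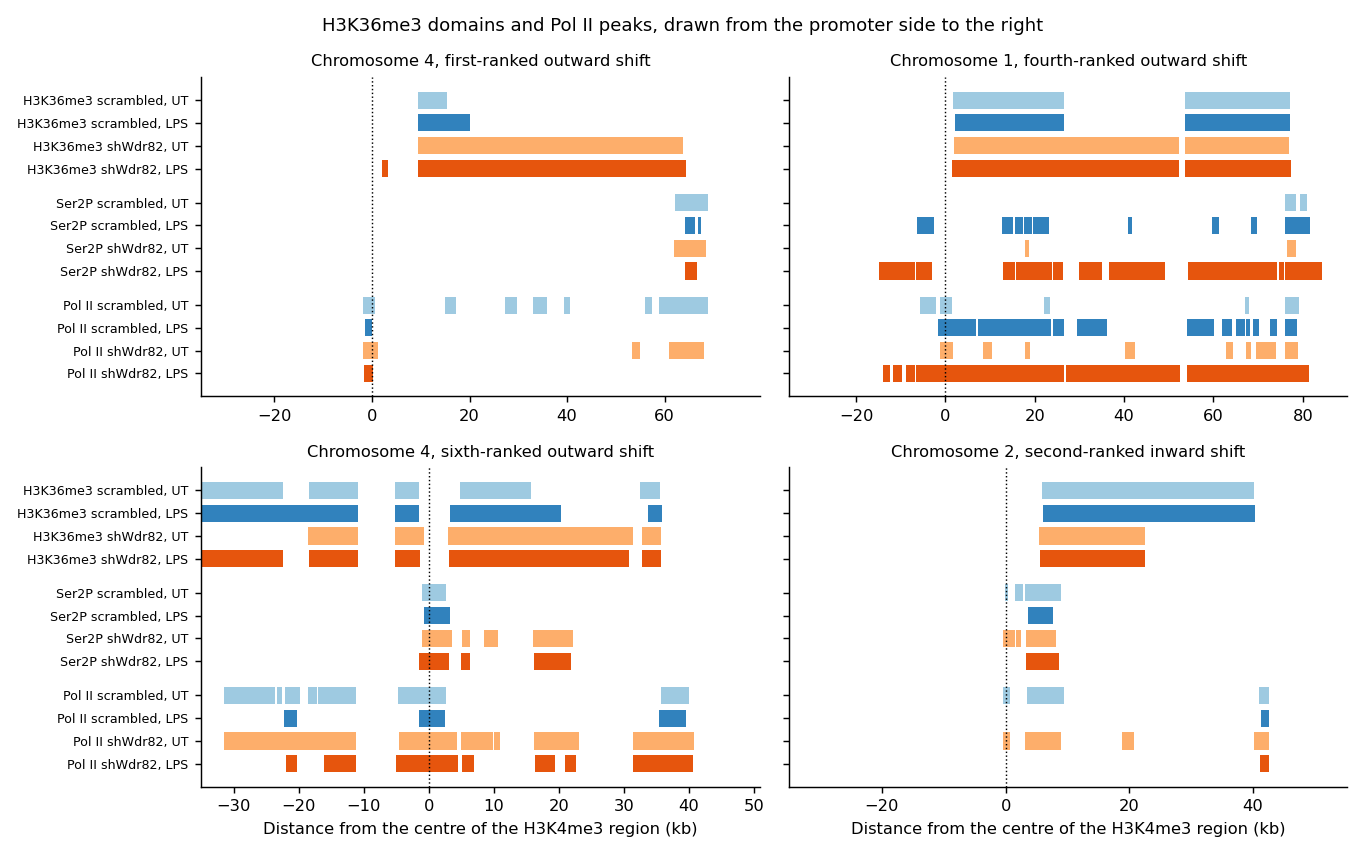
H3K36me3 domains and peaks of Ser2P and total Pol II in the 4 libraries of each antibody (rows) at 4 domains, by distance in kb from the centre of the H3K4me3 region (dotted line), with the transcribed side to the right. At the upper left, H3K36me3 reaches 44281 bp or more further in shWdr82 cells, with Ser2P at nearly the same places in both vectors. At the upper right and lower left, Pol II covers more of the added strip in shWdr82 cells, at the upper right mainly after LPS. Total Pol II peaks beyond these strips are called in both vectors. In both of these panels, Ser2P peaks of shWdr82 cells alone also lie outside the strip. At the lower right, the scrambled domains are the longer ones.

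The largest inward shifts were smaller and had hardly any Pol II. The domain at chr9:113779605-113835149 measured 36636 and 55111 bp in scrambled and 13382 and 37149 bp in shWdr82 cells, so its length also differed between treatments. Its shWdr82 ends lay 7629 and 44 bp from a peak border of the scrambled domain. The one at chr2:103869865-103904722 measured 34297 and 34204 bp against 17090 and 16937 bp, with the shWdr82 ends 3 and 6 bp from a peak border. Those at chr17:26699864-26715990 and chr12:82859297-82875267 had distal shifts of -7969 and -7806 bp and of -6849 and -6770 bp. The other 2, at chr3:135271469-135345480 and chr5:123158430-123220436, had shifts of -5084 and -12199 bp and of -5795 and -4988 bp. On chromosome 17 the shWdr82 end lay 2133 bp from a peak border after LPS, and the untreated scrambled domain held 1 peak. These distances were 2 and 3586 bp on chromosome 12, 11475 and 201 bp on chromosome 3, and 2432 and 1285 bp on chromosome 5. No Ser2P peak lay in any of these strips, in either vector or treatment. Total Pol II covered 64.5% (shWdr82) and 34.7% (scrambled) of the untreated chromosome 5 strip, and at most 0.215% of the others.

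Domains without a counterpart were short and of low score in each list. In untreated cells, 2451 shWdr82 domains (11.9%) overlapped no scrambled domain and 2630 scrambled domains (12.6%) no shWdr82 domain, so the shWdr82 list held 48.2% of them (46.9 to 49.6). After LPS these were 3255 (15.1%) and 2100 (10.2%), a share of 60.8% (59.5 to 62.1). Their median length was between 1905 and 2055 bp, and the median of their top scores between 78.5 and 96.9, near the minimum of 50. With equal numbers of peaks both shares crossed 50%, to 63.0% untreated and 40.3% after LPS. At least 5000 bp from any domain of the other list, the untreated share was 50.4%. The order of these counts thus changed with the number of peaks used.

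Merged over the 4 libraries there were 22586 regions, of which 14884 (65.9%) were in all 4. The shWdr82 pair alone held 948 regions and the scrambled pair alone 614, so 60.7% were with the hairpin (58.2 to 63.1). The 2 crossed patterns, which follow no factor of the design, held 295 (scrambled untreated with shWdr82 LPS) and 194 (scrambled LPS with shWdr82 untreated). With all 4 lists cut to equal numbers of peaks the counts were 798 and 622, and the crossed ones 123 and 387. The order of the first pair was therefore the same, but the crossed patterns turned.

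The regions in shWdr82 libraries alone lay further from other domains. Their median length was 2907 bp, against 2592 bp in scrambled libraries alone and 2160 and 2191 bp in the crossed patterns. Regions of 10 kb or longer were 56 (5.91%), against 11 (1.79%), and 29 (9.83%) and 11 (5.67%) crossed, so a crossed pattern held the largest share of long regions among these 4. At least 5000 bp from any domain of the libraries that lacked them lay 633 (66.8%), against 331 (53.9%), and 122 (41.4%) and 73 (37.6%) crossed. At least 50 kb away lay 178 (18.8%), against 43 (7.00%), and 13 (4.41%) and 5 (2.58%) crossed. They also lay further from promoters than regions in scrambled libraries alone and in the crossed patterns. Their median distance to an H3K4me3 peak of any list was 26044 bp, and 1.90% overlapped one. For regions in scrambled libraries alone these were 10474 bp and 10.7%, and for the crossed patterns 21744 and 22799.5 bp, and 3.05% and 5.67%. Regions in 1 shWdr82 library only lay as far from H3K4me3, at 27187.5 bp (untreated) and 29574 bp (LPS). For 1 scrambled library only the medians were 16352 and 18521.5 bp. The distance was thus not particular to regions in both shWdr82 libraries. Within 10000 bp of an oriented domain of the libraries that lacked them, 37 of 66 regions of both shWdr82 libraries lay beyond its distal end (56.1%, 43.3 to 68.3). For regions of both scrambled libraries it was 33 of 81 (40.7%, 29.9 to 52.2). Both intervals include 50%.

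Elongating Pol II was called more often in shWdr82 cells at these regions. In untreated cells, 93 of the 948 held a Ser2P peak with the hairpin and 44 with the scrambled control. These are 9.81% and 4.64%, which differ by 5.17 points (3.43 to 6.90). After LPS the counts were 99 and 54 (4.75 points, 3.08 to 6.41). Total Pol II differed by 2.11 points (0.541 to 3.68) and 4.11 points (2.37 to 5.86). For comparison, at regions in all 4 H3K36me3 libraries Ser2P was called less often with the hairpin, by -2.65 and -1.75 points, and total Pol II by -3.41 and -2.26. At the crossed regions the 8 intervals for both forms of Pol II included 0 except 2. These were total Pol II untreated (-3.73 points) and Ser2P after LPS (2.71 points), both at the 295 regions of the former crossed pattern. Most of the 948 regions had no Ser2P peak in either vector.

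The enhancer marks moved with the same regions. H3K4me1, which marks primed and active enhancers, was at 27.1% (shWdr82) and 24.2% (scrambled) of the 948 in untreated cells (2.95 points, 1.05 to 4.86) and at 28.0% and 23.8% after LPS (4.11 points, 2.25 to 5.98). H3K27ac, a mark of active enhancers and promoters, was at 21.3% with the hairpin and 17.3% with the empty vector in untreated cells (4.01 points, 2.60 to 5.42). After 4 h of LPS it was at 16.5% and 16.1% (0.316 points, -1.07 to 1.70). At the regions in all 4 libraries H3K27ac also differed upwards in untreated cells, by 0.786 points (0.415 to 1.16), and downwards after LPS (-1.89 points). H3K4me3 was rare, at 1.27% to 1.69%. At the 614 regions of scrambled libraries alone the differences were mostly negative. Ser2P differed by -5.05 and 0.326 points, total Pol II by -4.89 and -2.12, and H3K4me1 by -5.37 and -4.72.

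**Figure D5:**
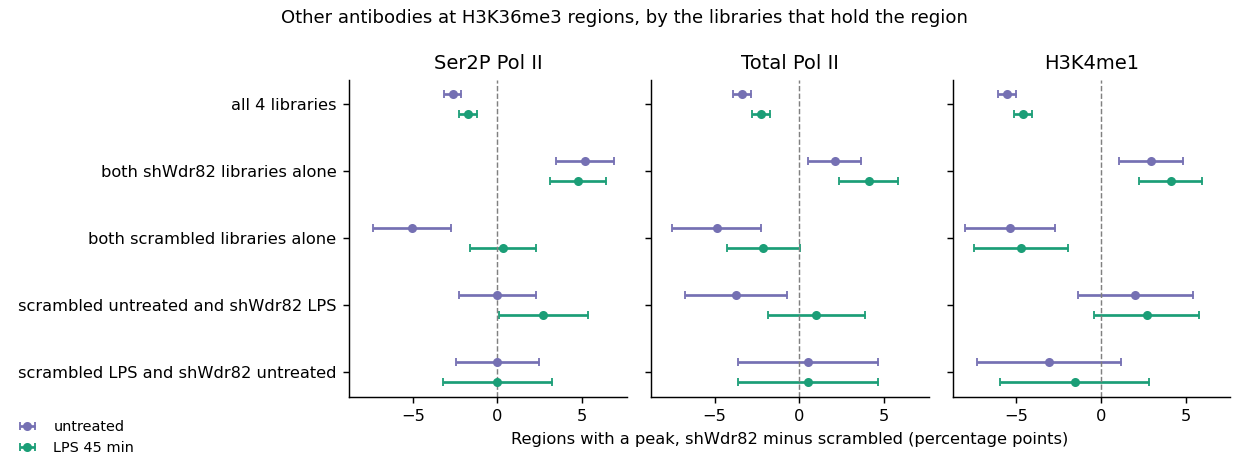
Difference between shWdr82 and scrambled cells in the share of regions with a peak (x axis, percentage points, 95% Wald interval for paired shares) for Ser2P, total Pol II and H3K4me1, at H3K36me3 regions grouped by the libraries that hold them (y axis). At the 948 regions of both shWdr82 libraries alone all 6 intervals lie above 0, and at the 14884 regions of all 4 libraries all 6 lie below it.

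The 5 longest isolated regions of shWdr82 cells were 22801 to 39699 bp wide. That at chr4:136094460-136134158 had low scores (151 and 131) and lay 7318 bp from a scrambled domain. Ser2P covered 20.5% and 22.3% of it in shWdr82 cells, untreated and after LPS, and none and 37.2% in scrambled cells, so Pol II was called there with and without the hairpin. The region at chr11:76539440-76575566 had scores of 2728 and 3100 and lay 469 bp from an H3K4me3 peak. Its Ser2P coverage was 0.036% and 6.57% in shWdr82 and 5.35% and 5.02% in scrambled cells. The region at chr4:141468907-141496081 was the most remote of the 5, at 38764 bp from any scrambled domain and 37157 bp from H3K4me3. It had scores of 1259 and 2178, H3K27ac and H3K4me1 peaks in all 4 lists of each, and Ser2P over 15.1% and 4.00% in shWdr82 cells against 3.78% and none in scrambled cells. The other 2 were at chr17:28013122-28042835, with Ser2P over 20.8% (shWdr82) and 20.1% (scrambled) of its length when untreated and none and 9.79% after LPS, and at chr10:39107847-39130647, with no Ser2P peak.

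Of the 5 longest isolated regions of scrambled cells, the widest carried Pol II and promoter marks. The region at chr3:68809654-68847890 overlapped H3K4me3 peaks in all 4 lists, and Ser2P covered 36.0% and 29.3% of it in scrambled and 28.2% and 27.6% in shWdr82 cells. Total Pol II covered 96.7% and 66.7% in shWdr82 cells, against none and 93.3% in scrambled cells. Its H3K36me3 scores were 3216 and 1275, and no shWdr82 domain lay closer than 10652 bp. Elongating Pol II was called there in shWdr82 cells while the mark was not. The remaining 4, at chr19:32869513-32896611, chr13:30754263-30781045, chrX:100690952-100706405 and chr4:48668841-48679015, had scores from 167 to 1468 untreated and from 54.9 to 159 after LPS, and Ser2P only at the chromosome X region, in shWdr82 cells.

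The 3 longest merged regions show how the lists broke up wide domains. At chr11:34123856-34380949 the mark spanned 257047 and 235293 bp in scrambled and 190830 and 234977 bp in shWdr82 cells, in 2, 4, 2 and 3 domains. At chr7:56653204-56866595 the spans were 213392 and 212916 bp, and 212650 and 212210 bp, in 2, 3, 1 and 4 domains. At chr12:118809246-118999700 the spans were 114466 and 81355 bp in scrambled and 187184 and 187000 bp in shWdr82 cells, in 2, 2, 3 and 6 domains. The chromosome 12 region alone of these 3 was longer in both shWdr82 libraries.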

How the data were processed

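The data are 24 peak lists, 1 per library, of which the 4 H3K36me3 lists were compared and the others looked up at their positions. Per the submitters' processing notes, the tools were Bowtie 0.12.7 and MACS 1.4 and the build mm9. The sources used here give neither settings nor control libraries. The deposited score is the authors' own value per peak (50.0 to 3233). It served here to rank peaks of 1 library or to set a minimum.

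Groups came from the sample titles. Domains, orientation by H3K4me3, 1 to 1 pairs and regions without a counterpart were computed with Python 3.11.15, NumPy 2.4.6 and SciPy 1.17.1. The code was checked on the scrambled untreated list, compared with a copy of itself with planted end shifts and with domains dropped or added. Such a check does not cover variation between libraries. Overlap means at least 1 bp. With 1 library per group no test was run. The domains and rules were chosen with earlier results of these data known. Regions named by position are the 6 largest distal shifts in each direction by the smaller of both treatments, the 5 longest regions of 1 vector at least 5000 bp from the other, and the 3 longest merged regions. The choice of alternatives to try covered joining, score, number of peaks, length, thresholds and orientation. The gene and promoter tables at hand are on GRCm38, so no gene or sequence was joined to these mm9 positions and the gene lists planned for this were not analysed here.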

Additional observations from a re-analysis of the deposited data

Results flagged for a closer look

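For 3 results the values of untreated and LPS cells lay on opposite sides of no difference, each with 1 library per group, and the difference between the treatments was not tested. For 2 of them the interval of 1 treatment included no difference, so no opposite direction is called there. The ratio of domain numbers, shWdr82 to scrambled, was 0.984 in untreated cells, where the interval included 1, and 1.05 after LPS. The share of differing distal ends that lay further out in shWdr82 cells was 34.1% untreated and 50.5% after LPS, where the interval included 50%. With equal numbers of peaks in both lists these shares were 41.3% and 41.1%, with both intervals under 50%. The share of domains without a counterpart that belonged to the shWdr82 list was 48.2% and 60.8%, and both intervals left out 50%. The scrambled LPS list had the lowest scores and the shortest covered length of the 4, and its part in these results was not tested.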

How the results depend on the processing

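Of 94 values under alternative settings, for 14 results, 65 stayed within the counting interval of the reported value, 25 left it in the same direction or with no called direction, and 4 reversed. With lists cut to equal numbers of their highest-scoring peaks, the ratio of domain numbers became 1.05 untreated and 0.957 after LPS (reversed), and the shWdr82 share of domains without a counterpart 63.0% and 40.3% (both reversed). The share over both treatments became 56.2%, the distal outward share 41.3% and 41.1%, the proximal one 33.7% and 22.1%, and the median log2 length ratio -0.018 and -0.0065. Joining only touching peaks gave number ratios of 0.916 and 1.14, a log2 length ratio of -0.013 untreated, and after LPS a distal share of 43.8% and a share without a counterpart of 62.8%. Scores of at least 100 gave 1.07 and 64.8% for the LPS number ratio and share without a counterpart. Requiring a distance of 5000 bp gave shares without a counterpart of 50.4% untreated (reversed), 65.1% after LPS and 65.7% over both. Domains of at least 5000 bp gave 63.3% over both treatments and a log2 length ratio of -0.017 untreated. Reciprocal overlap gave a log2 length ratio of -0.0055 after LPS. Shifts of at least 3000 bp gave distal shares of 39.9% and 58.6% and a proximal share of 21.3% after LPS. Total Pol II in place of Ser2P gave strip differences of -1.87 and -5.23 points. The cause was not tested. The proximal share was under 50% in every setting tried, from 25.2% to 33.7% untreated and from 21.3% to 32.2% after LPS. The share of outward distal shifts repeated after LPS ran from 27.8% to 36.4%. No paired analysis was possible because the labels give no replicate numbers and no result comes from a test. Read depth is unknown, so how far it limits the detection of weak domains was not tested.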
